A study of Homo sapiens with 12 samples.

Results

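A panel of 59 genes of squamous epithelial differentiation was followed in 12 poly-A RNA-seq libraries of 2 cell lines, each treated with PTDSS1i or with its vehicle. The panel was named gene by gene and holds 19 cornified envelope genes, 6 S100 genes, 7 kallikreins, 4 serpins, 4 other protease inhibitors, 8 desmosome genes and 11 further differentiation genes, of 79317 genes listed in at least 1 of the 2 count tables. Genes were matched by name and by Ensembl identifier without its version. All 59 were listed in the U138MG table and 54 in the KYSE30 table, and *TGM3*, *CRNN*, *S100A8*, *SERPINB3* and *SERPINB4* in KYSE30 are not analysed here.

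Stratified squamous epithelia are renewed from a basal layer, and cells that leave it build a cornified envelope beneath the plasma membrane. Involucrin, the small proline-rich proteins, envoplakin and periplakin are laid down there and joined by transglutaminases, while S100 proteins bind calcium in the same cells. Desmosomes hold the layers together: desmogleins and desmocollins, the desmosomal cadherins, span the membrane, and plakoglobin, the plakophilins and desmoplakin tie them to keratin filaments. Kallikreins are secreted serine proteases that cut desmosomal proteins when cells are shed, and cystatins, serpins and the inhibitor encoded by *SPINK5* hold proteases in check.

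PTDSS1 makes phosphatidylserine from phosphatidylcholine, and PTDSS1i (DS55980254) is a small molecule that inhibits it. The carcinoma line KYSE30, from esophageal squamous epithelium, and U138MG, labelled as glioblastoma, both of WT genotype, received either 100 nM of the inhibitor or DMSO and were collected after 48 h, with 3 samples in each of 4 groups. The lines were labelled as separate batches, so line and batch cannot be told apart, and nothing in the labels says whether the 3 samples of a group were separate cultures, so the p-values measure the spread between these samples. The growth medium given for the second line in the labels was that of KYSE30, whereas the study's methods name DMEM.

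Total counts lay between 18800932 and 26514658 per library. Before any comparison, lineage markers were read as CPM (each count over the total of its library, on the usual counts-per-million scale). The libraries labelled U138MG went against their label: in DMSO the basal keratins *KRT5* and *KRT15* stood at 1470 ± 83.4 and 4861 ± 329.7 CPM (SD, n = 3), *TP63*, the regulator of basal squamous cells, at 275.7 ± 7.36 CPM and *CDH1*, the epithelial cadherin, at 462.9 ± 2.14 CPM. *OLIG2* and *S100B*, genes of glial cells, had 0 counts in each of the 6 libraries, *GFAP* 2.36 ± 0.183 CPM in DMSO and *VIM*, the mesenchymal filament gene, 0.206 ± 0.0662 CPM. Other markers of the same lists did not all go this way. In DMSO *KRT14* and *KRT6A* stood at 0.198 and 0.488 CPM. The mesenchymal genes *FN1*, *COL1A1*, *CDH2* and *ZEB1* stood at 75.8, 54.5, 11.9 and 0.0149 CPM. The glial genes *PTPRZ1*, *NES* and *SOX10* stood at 4.49, 0.556 and 0.165 CPM. These libraries are therefore called the libraries labelled U138MG throughout, and neither a glial nor a mesenchymal origin is assumed for them. In KYSE30, *TP63* stood at 98.2 ± 7.41 and *CDH1* at 513.7 ± 25.5 CPM, while *KRT5* was close to 0 (0.0608 ± 0.0672 CPM in DMSO).

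The largest fold changes included neighbouring genes on chromosome 1 and on chromosome 18, and the start regions of 6 of these genes are shown: 3 small proline-rich genes and *IVL*, which was called in opposite directions in the lines, and a near-identical pair of serpins. Each window runs from 250 bases before to 50 bases after the gene's start, 5′ to 3′ on the strand of the gene, in RefSeq's GRCh38.p14 table, which held an entry for 46 of the 59 genes. The 4 windows from chromosome 1 lie at chr1:152983831-152984130 for *SPRR1A*, chr1:153030953-153031252 for *SPRR1B*, chr1:153001499-153001798 for *SPRR3* and chr1:152908296-152908595 for *IVL*, all on the plus strand. Capitals mark the letters TGANTCA, which the transcription factor AP-1 (FOS and JUN proteins) is known to bind, and TATAAA, the TATA box, on either strand.
SPRR1A: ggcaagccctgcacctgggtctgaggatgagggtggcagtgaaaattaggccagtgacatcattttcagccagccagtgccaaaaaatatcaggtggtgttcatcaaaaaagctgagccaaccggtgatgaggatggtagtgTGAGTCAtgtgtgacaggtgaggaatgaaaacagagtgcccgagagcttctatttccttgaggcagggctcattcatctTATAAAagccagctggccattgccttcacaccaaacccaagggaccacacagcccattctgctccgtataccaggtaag
SPRR1B: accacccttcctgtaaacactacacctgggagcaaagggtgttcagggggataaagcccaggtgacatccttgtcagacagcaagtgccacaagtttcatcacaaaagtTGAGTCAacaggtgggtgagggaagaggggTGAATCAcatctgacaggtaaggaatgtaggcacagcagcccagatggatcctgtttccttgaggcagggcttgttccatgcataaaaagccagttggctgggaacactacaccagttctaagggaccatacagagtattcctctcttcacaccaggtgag
SPRR3: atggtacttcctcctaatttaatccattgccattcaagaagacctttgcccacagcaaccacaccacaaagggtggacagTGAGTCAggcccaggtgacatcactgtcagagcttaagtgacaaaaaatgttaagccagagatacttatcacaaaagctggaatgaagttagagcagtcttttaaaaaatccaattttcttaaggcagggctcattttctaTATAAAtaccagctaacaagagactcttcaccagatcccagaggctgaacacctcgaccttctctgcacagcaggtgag
IVL: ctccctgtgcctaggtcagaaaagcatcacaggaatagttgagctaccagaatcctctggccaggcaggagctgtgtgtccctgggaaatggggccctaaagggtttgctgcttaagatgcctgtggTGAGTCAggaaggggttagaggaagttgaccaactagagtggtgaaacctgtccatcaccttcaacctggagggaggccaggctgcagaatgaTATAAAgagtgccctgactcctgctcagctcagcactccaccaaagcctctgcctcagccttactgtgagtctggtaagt

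The 2 windows from chromosome 18 lie on the minus strand at chr18:63661844-63662143 for *SERPINB3* and chr18:63644207-63644506 for *SERPINB4*. These were identical at 296 of 300 bases (98.7%), and capitals mark the 4 positions at which they differ.
SERPINB3: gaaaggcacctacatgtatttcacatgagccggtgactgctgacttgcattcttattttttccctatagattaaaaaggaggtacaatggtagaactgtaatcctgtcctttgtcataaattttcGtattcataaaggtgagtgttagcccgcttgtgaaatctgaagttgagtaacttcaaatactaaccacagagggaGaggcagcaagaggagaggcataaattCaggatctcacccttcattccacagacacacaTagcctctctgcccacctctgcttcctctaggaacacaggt
SERPINB4: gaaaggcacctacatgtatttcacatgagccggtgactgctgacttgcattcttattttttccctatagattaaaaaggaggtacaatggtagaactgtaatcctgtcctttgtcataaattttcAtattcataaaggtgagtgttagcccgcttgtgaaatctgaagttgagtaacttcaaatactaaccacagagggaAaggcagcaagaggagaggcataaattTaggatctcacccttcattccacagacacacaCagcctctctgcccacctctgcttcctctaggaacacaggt

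TGANTCA was found in 14 of the 46 windows (30.4%) and in 7.71% of all 35116 windows of the same length. The 14 belonged to *SPRR1A*, *SPRR1B*, *SPRR2A*, *SPRR3*, *IVL*, *CRNN*, *ECM1*, *SCEL*, *SBSN*, *S100A2*, *SERPINB5*, *SERPINB13*, *CLCA2* and *EMP1*. It began 108 bases before the start in *SPRR1A*, 141 and 111 bases before it in *SPRR1B*, 170 in *SPRR3* and 123 in *IVL*. TATAAA was found in 14 windows as well, against 11.5% of all windows, and began 29 bases before the start in *SPRR1A* and *SPRR3* and 30 bases before it in *IVL*. Neither set of letters was found in the windows of *SERPINB3* and *SERPINB4* or of any of the kallikreins and desmosome genes with an entry. Other letters searched on both strands were TGATGNAA, the CARE element, in 3 windows (6.52%, against 3.62% of all), and AGGAAG, a core bound by ETS factors, in 23 (50%, against 33.6%). In the *IVL* window a match of AGGAAG overlapped that of TGANTCA. The letters were chosen with the results of the series known, and a match describes the sequence, not a bound site.

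In KYSE30 the panel moved mostly upward. After the filter on low counts 39 genes were tested, of which 26 were higher and 5 lower after PTDSS1i (edgeR's quasi-likelihood test, Benjamini-Hochberg adjusted p under 0.05), against backgrounds of 30.1% higher and 32% lower among all 16389 genes tested. The median log2 fold change of the 39 was 0.49, against −0.03 over all tested genes. At an absolute log2 fold change over 1, 8 were higher and 3 lower, against 6.4% and 7.04% of all genes. The DMSO and PTDSS1i libraries did not overlap for 31 of the 39, against 66.3% of all genes. In bulk RNA a smaller share of cells that express a gene and less RNA per cell cannot be told apart.

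In the libraries labelled U138MG genes of the panel were called in both directions. Of 45 genes tested 23 (51.1%) were higher and 17 (37.8%) lower, against 33.9% higher and 33.6% lower among 17666 genes. The lower share was near that of all genes. The median log2 fold change of the 45 was 0.20. These shares of all genes, and those given for KYSE30, are also the backgrounds of the group counts below. Beyond an absolute log2 fold change of 1, 17 were higher and 8 lower, against 8.19% and 11.6% of all genes, and the libraries did not overlap for 41, against 71.4%. Of these genes *SPRR1A*, *SBSN* and *KLK7* reached the filter through the PTDSS1i libraries alone and *TGM5* and *A2ML1* through the DMSO libraries alone, while *SCEL* passed the cutoff in 1 DMSO and 3 PTDSS1i libraries and *S100A8* in 1 and 2. In the first 5 a difference was a condition of being tested, and the counts above support nothing by themselves. Scaling by library size alone, which moved the median of all genes from −0.03 to −0.17, gave 19 of the 45 higher and 21 lower. Upper-quartile scaling also moved that median to −0.17 and gave 19 higher and 21 lower. Over all genes library size gave 4533 higher and 7694 lower and the upper quartile 4545 and 7691, where the main scaling gave 5989 and 5930. In KYSE30 library size gave 3932 and 6460 over all genes in place of 4927 and 5238, and 25 and 6 of the 39. The upper quartile gave 4693 and 5496 over all genes there, and 25 and 5 of the 39.

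**Figure D1:**
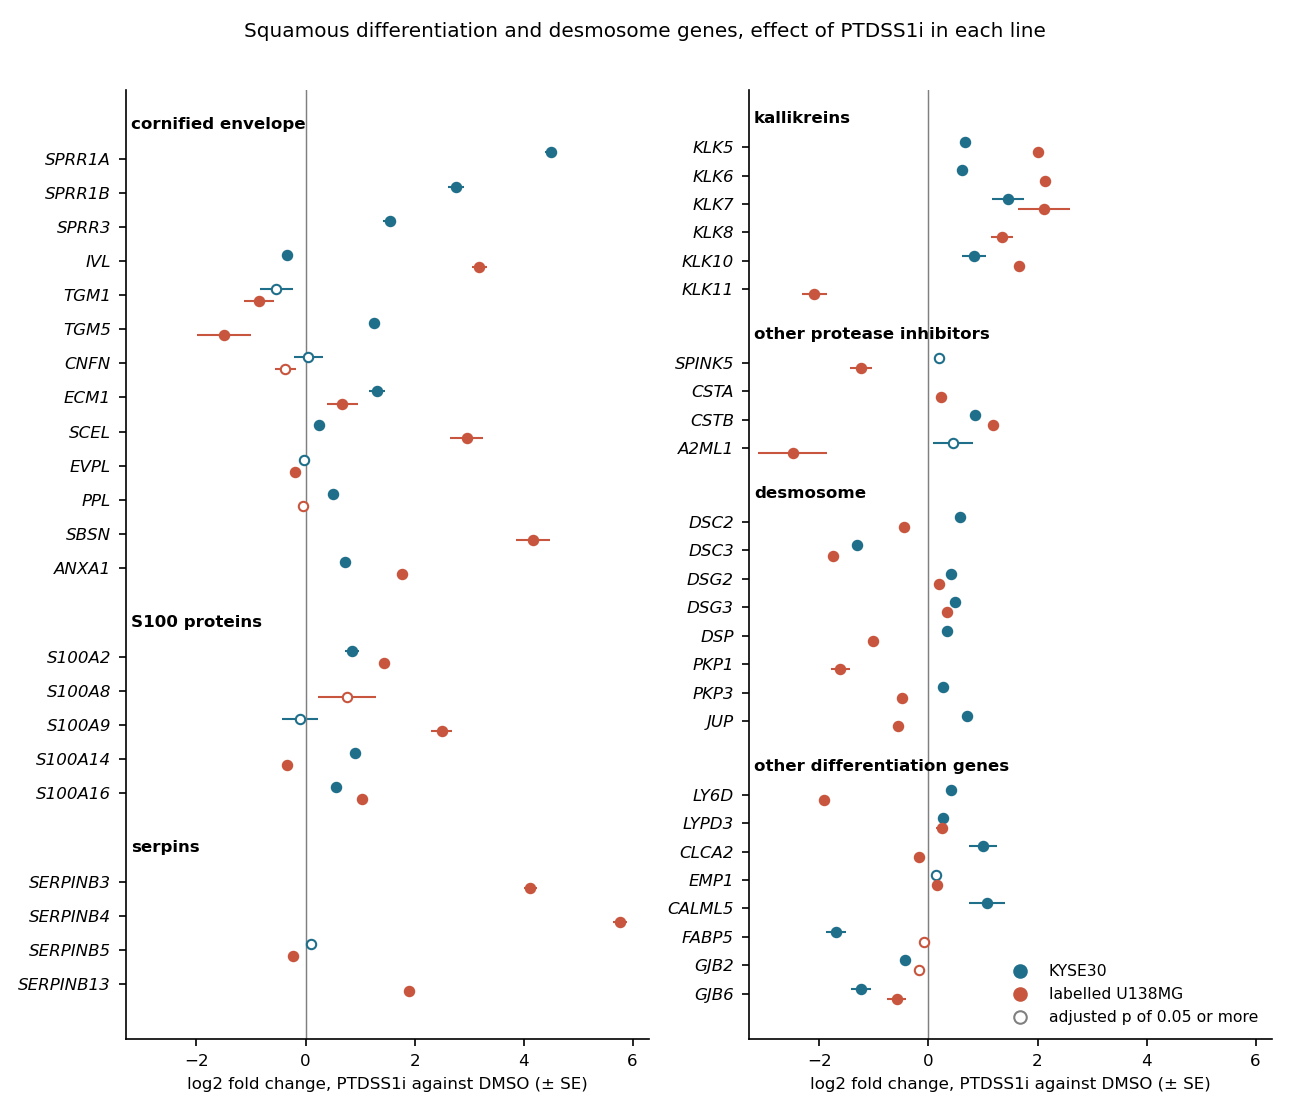
The log2 fold change of PTDSS1i against DMSO (x axis) is plotted for each tested gene of the panel by group, with bars for the standard error, teal points for KYSE30, red points for the libraries labelled U138MG, and open points where the adjusted p was 0.05 or more; *SPRR1A* in the libraries labelled U138MG is left out because its DMSO libraries had 0 counts. In the desmosome group 6 of 7 genes lie to the right of 0 in KYSE30 and 6 of 8 to the left of 0 in the other line.

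Of 12 cornified envelope genes tested in KYSE30, 8 were higher and 1 lower (median log2 fold change 0.62): *SPRR1A*, *SPRR1B*, *SPRR3*, *TGM5*, *ECM1*, *SCEL*, *PPL* and *ANXA1* rose and *IVL* fell. The 3 with the largest log2 fold changes encode small proline-rich proteins, envelope precursors whose genes lie close together. *SPRR1A* stood at 2.88, 2.27 and 2.04 normalized CPM (CPM after TMM scaling) in the 3 DMSO libraries and at 48.9, 56.3 and 57.6 in the PTDSS1i libraries, and values below are given in this order. Its log2 fold change was 4.51 (SE 0.11, adjusted p = 3.14e-18), the largest of the panel in this line, and the 2 sets of libraries lay far apart. *SPRR1B* went from 2.35, 1.46 and 1.62 to 12.1, 12.5 and 12.3 normalized CPM, a log2 fold change of 2.76 (SE 0.15, adjusted p = 4.27e-13). *SPRR3* went from 10.7, 11.1 and 9.53 to 24.8, 32.0 and 34.4, a log2 fold change of 1.54 (SE 0.11, adjusted p = 1.11e-08). In all 3 genes the lowest PTDSS1i library was above the highest DMSO library. *SPRR2A*, *SPRR2D* and *SPRR2E* had at most 10 counts in any KYSE30 library and were not tested. Between 8.72% and 23.9% of their 75-base windows also occur in another gene. How reads with several matches were treated is not given, so these low counts are uncertain.

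*IVL*, involucrin, the scaffold of the envelope, moved against its neighbours in KYSE30. It stood at 29.3, 30.8 and 31.9 normalized CPM in DMSO and at 23.8, 24.0 and 24.6 after PTDSS1i, without overlap, a log2 fold change of −0.34 (SE 0.07, adjusted p = 0.000142). The transglutaminase *TGM5* was higher, at 6.99, 7.66 and 8.00 and then 16.4, 19.0 and 19.1 normalized CPM, a log2 fold change of 1.26 (SE 0.10, adjusted p = 3.00e-10). *ECM1*, a secreted matrix protein, had a log2 fold change of 1.31 (SE 0.15, adjusted p = 1.78e-07). *ANXA1*, an annexin that transglutaminases build into the envelope, and *PPL*, periplakin, were higher by smaller amounts, with log2 fold changes of 0.73 and 0.50. The call of *SCEL*, sciellin, was weak: its log2 fold change of 0.24 (SE 0.09, adjusted p = 0.0465) rested on libraries that overlapped, and its adjusted p was between 0.0904 and 0.196 without any of DMSO replicates 1 to 3 or PTDSS1i replicates 2 and 3. *TGM1*, *CNFN* and *EVPL*, which encode a transglutaminase, cornifelin and envoplakin, had log2 fold changes of −0.53, 0.05 and −0.02 and did not pass the test, and the sign for *CNFN* turned with the scaling.

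Of 11 envelope genes tested in the libraries labelled U138MG, 6 were higher and 3 lower. *SPRR1A*, *ECM1*, *SCEL* and *ANXA1* were higher in KYSE30 too, whereas *IVL* was lower there and *SBSN* under the filter. *IVL*, lower in KYSE30, stood at 1.80, 1.88 and 1.91 normalized CPM in DMSO and at 15.4, 18.5 and 17.2 after PTDSS1i, a log2 fold change of 3.19 (SE 0.13, adjusted p = 1.71e-18). *ANXA1* went from 101, 97.6 and 92.1 to 326, 336 and 325 normalized CPM, a log2 fold change of 1.76 (SE 0.04, adjusted p = 4.20e-25). In both genes the treatments were well apart. *SBSN*, suprabasin, a secreted protein of upper layers, stood at 0.150, 0.256 and 0.222 and then 4.12, 3.82 and 3.79 normalized CPM, and *SCEL* at 0.349, 0.299 and 0.488 and then 2.46, 3.22 and 3.27, with log2 fold changes of 4.17 and 2.96 (SE 0.30 and 0.30). In DMSO *SBSN* passed the filter's cutoff in 0 libraries and *SCEL* in 1.

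*SPRR1A*, the leading gene in KYSE30, had 0 counts in the 3 DMSO libraries labelled U138MG and 1.97, 1.93 and 1.88 normalized CPM after PTDSS1i, at least 14.1-fold higher than the level that 3 counts in each DMSO library would give. *SPRR1B* had 1 to 8 counts in every library there and *SPRR3* at most 3, under the filter, and they were not tested in that line alone. *EVPL* was lower, at 47.8, 49.5 and 45.8 and then 44.3, 39.9 and 40.8 normalized CPM, a log2 fold change of −0.20 (SE 0.05, adjusted p = 0.00252). *TGM5* stood at 0.449, 0.897 and 0.621 and then 0.132, 0.368 and 0.200 normalized CPM, and its log2 fold change of −1.50 (SE 0.50, adjusted p = 0.00986) lost its call without DMSO replicate 2 (−1.20, adjusted p = 0.0901) or without PTDSS1i replicate 1 (−1.21, adjusted p = 0.0669). *TGM1* had a log2 fold change of −0.85 (SE 0.28, adjusted p = 0.00846), and its call was lost without DMSO replicate 2 (−0.67, adjusted p = 0.0717) or PTDSS1i replicate 3 (−0.65, adjusted p = 0.0563). *ECM1* had 0.68 (SE 0.28, adjusted p = 0.0363), with adjusted p between 0.0595 and 0.127 without DMSO replicate 1 or 3 or without PTDSS1i replicate 2 or 3. The *ECM1* call was also lost with library size (adjusted p = 0.0972), the upper quartile (adjusted p = 0.0968) and DESeq2 (adjusted p = 0.0833). *PPL* and *CNFN* had log2 fold changes of −0.05 and −0.37 and did not pass. Both were called lower with library size alone (−0.20, adjusted p = 6.72e-06, and −0.52, adjusted p = 0.0200). The same held with upper-quartile scaling (−0.20, adjusted p = 7.87e-06, and −0.52, adjusted p = 0.0190). With 10 counts required in every library *PPL* was called lower as well (−0.07, adjusted p = 0.0466). *CRNN* had 0 counts in all 6 libraries, *TGM3* at most 5 and *CRCT1* at most 2.

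**Figure D2:**
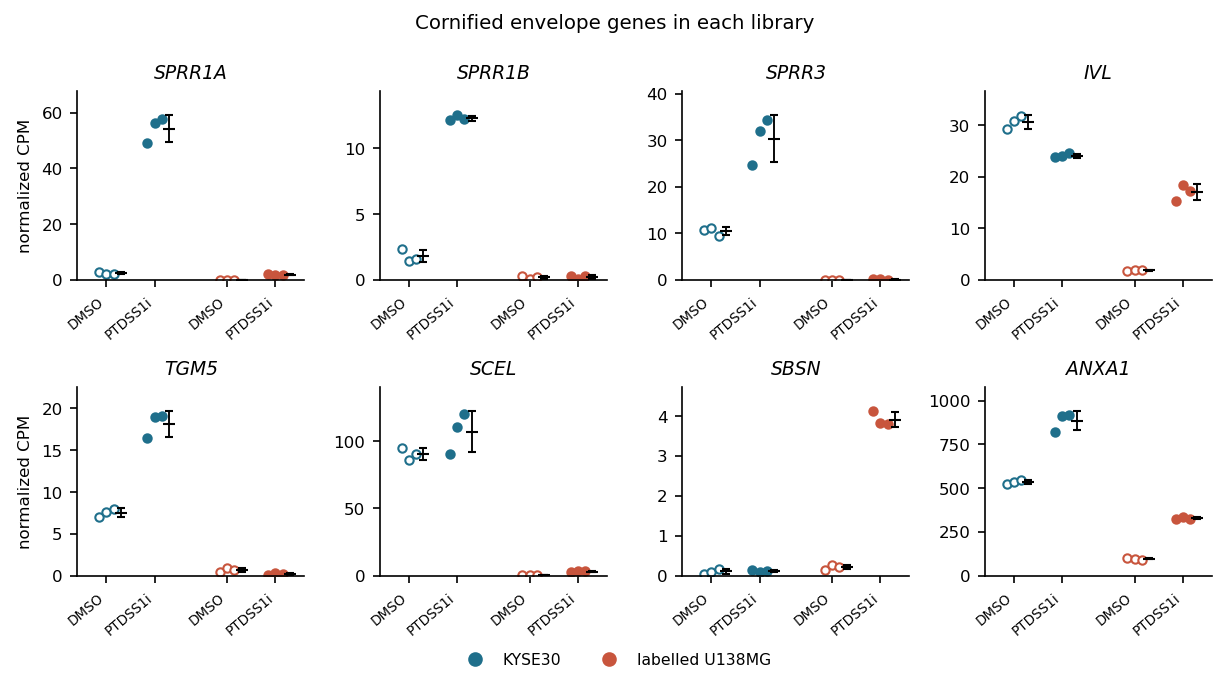
Normalized CPM of 8 cornified envelope genes is plotted in each library, with open points for DMSO, filled points for PTDSS1i, and a bar for the mean ± SD of 3 libraries; the 2 lines were normalized separately. *SPRR1A*, *SPRR1B* and *SPRR3* rise in KYSE30. In the libraries labelled U138MG *SPRR1A* rises from 0 to 1.97, 1.93 and 1.88 normalized CPM, while *SPRR1B* and *SPRR3* lie near 0. *IVL* falls in KYSE30 and rises in the libraries labelled U138MG.

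The S100 genes, which share the chromosome 1 cluster with the envelope genes, were mostly higher in both lines. In KYSE30 3 of 4 tested were higher and none lower, and in the other line 3 of 5 were higher and 1 lower. *S100A2* stood at 5.67, 4.18 and 5.10 and then 9.88, 8.11 and 9.04 normalized CPM in KYSE30, a log2 fold change of 0.85 (SE 0.13, adjusted p = 6.17e-06), and at 174, 167 and 160.2 and then 473, 442 and 451 in the libraries labelled U138MG, where it was 1.45 (SE 0.04, adjusted p = 2.41e-23). *S100A16* had log2 fold changes of 0.55 (SE 0.06, adjusted p = 4.15e-08) and 1.04 (SE 0.04, adjusted p = 1.32e-19) in the same order. In KYSE30 its libraries stood at 291, 249 and 250.2 and then 394, 378 and 384 normalized CPM, and in the other line at 128, 137 and 124 and then 271, 258 and 269, without overlap in either.

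*S100A14* was the exception among them, and from here on values in parentheses are the log2 fold change with its standard error (SE) and adjusted p. In KYSE30 it went from 259, 229 and 256 to 448, 462 and 487 normalized CPM (0.91, SE 0.06, adjusted p = 6.32e-12), and in the libraries labelled U138MG from 507, 523 and 468 to 399.9, 391 and 389.6 (−0.34, SE 0.04, adjusted p = 4.56e-09). Both lines were without overlap, in opposite directions. *S100A9*, a subunit of calprotectin, had a log2 fold change of 2.50 (SE 0.20, adjusted p = 5.21e-12) in the libraries labelled U138MG, from 0.899, 1.24 and 1.51 to 6.89, 7.64 and 6.27 normalized CPM, and of −0.11 (SE 0.33, adjusted p = 0.792) in KYSE30. Its partner *S100A8* stood at 0.549, 0.256 and 0.266 and then 0.175, 0.691 and 0.918 normalized CPM and overlapped (0.76, SE 0.52, adjusted p = 0.204). *S100A7*, psoriasin, had at most 7 counts in any library. From *CRNN* to *S100A14* (chr1:152409243-153616986, GENCODE 29 on GRCh38), a stretch with 71 annotated genes, 9 of 11 tested genes were higher and 1 lower in KYSE30, and 6 of 14 were higher and 3 lower in the other line, members of the panel included. Without the members, 3 of 3 were higher in KYSE30, and 1 of 7 was higher and 2 lower in the other line. Over all genes, 30.1% were higher in KYSE30 and 33.9% in the other line.

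The kallikreins, proteases of desquamation encoded in a row on chromosome 19 (chr19:50943303-51065114), rose in both lines wherever they were tested, apart from *KLK11*. In KYSE30 the 4 tested, *KLK5*, *KLK6*, *KLK7* and *KLK10*, were all higher. *KLK5*, a trypsin-like protease, stood at 25.9, 23.9 and 26.1 normalized CPM in DMSO and at 41.8, 40.1 and 38.3 after PTDSS1i, a log2 fold change of 0.66 (SE 0.07, adjusted p = 1.82e-08). *KLK6* stood at 74.1, 54.7 and 66.4 and then 107, 94.8 and 97.2, a log2 fold change of 0.61 (SE 0.10, adjusted p = 0.000430). *KLK7*, a chymotrypsin-like protease, and *KLK10* were low, with DMSO means of 0.625 and 1.45 and PTDSS1i means of 1.73 and 2.58 normalized CPM, and log2 fold changes of 1.45 and 0.83 (SE 0.29 and 0.22). *KLK8*, *KLK11* and *KLK13* had at most 2 counts in any KYSE30 library.

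Of 6 kallikreins tested in the libraries labelled U138MG, 5 were higher and 1 lower. *KLK5* stood at 8.04, 8.12 and 8.47 and then 32.7, 32.9 and 33.0 normalized CPM, a log2 fold change of 2.00 (SE 0.08, adjusted p = 5.45e-19). *KLK6* went from 14.3, 14.5 and 11.6 to 60.9, 56.7 and 59.8 normalized CPM, a log2 fold change of 2.13 (SE 0.07, adjusted p = 2.74e-20). *KLK10* went from 21.5, 19.6 and 20.6 to 66.0, 59.4 and 69.2 normalized CPM, a log2 fold change of 1.66 (SE 0.06, adjusted p = 2.11e-19). Their libraries were fully separated. *KLK8* had a log2 fold change of 1.34 (SE 0.21, adjusted p = 1.82e-06), but 31.4% of its 75-base windows also occur in another annotated gene. *KLK7*, which reached the filter through the PTDSS1i libraries alone, had 2.12 (SE 0.47, adjusted p = 0.000285), and 2.93 without DMSO replicate 2. *KLK11* ran the other way, from 3.75, 5.55 and 5.01 to 1.36, 0.783 and 1.20 normalized CPM, a log2 fold change of −2.09 (SE 0.23, adjusted p = 5.05e-09), and *KLK13* had 0 to 10 counts. *KLK5*, *KLK6* and *KLK10* each overlap an antisense gene, and the library kit does not mark strand, so that reads of the antisense gene cannot be told apart.

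The changes of *KLK5*, *KLK6* and *KLK10* were larger in the libraries labelled U138MG than in KYSE30, by 1.30 (SE 0.10, adjusted p = 2.21e-12), 1.48 (SE 0.16, adjusted p = 5.48e-06) and 0.80 (SE 0.21, adjusted p = 0.00228) on the log2 scale, by the test of the interaction of line and treatment. For *KLK7* the difference was 0.62 (SE 0.57, adjusted p = 0.391), so a difference between the lines was not shown for it.

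Of the 4 serpins, 3 were higher and 1 lower in the libraries labelled U138MG (median log2 fold change 3.01). *SERPINB3* and *SERPINB4*, the squamous cell carcinoma antigens, are near-identical neighbours on chromosome 18 that inhibit proteases. *SERPINB4* stood at 1.65, 0.683 and 0.799 normalized CPM in DMSO and at 56.5, 54.7 and 55.4 after PTDSS1i, a log2 fold change of 5.76 (SE 0.13, adjusted p = 2.18e-19). *SERPINB3* stood at 2.55, 1.62 and 1.55 and then 33.1, 32.3 and 33.5 normalized CPM, a log2 fold change of 4.13 (SE 0.12, adjusted p = 3.36e-22). All 6 PTDSS1i values exceeded the DMSO values more than 10-fold. Reads shared by the pair could be split between them, since 10.0% of the 75-base windows of *SERPINB3* and 8.55% of those of *SERPINB4* also occur elsewhere, and *SERPINB3* overlaps *SERPINB11* on the opposite strand.

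*SERPINB13*, an inhibitor of cathepsins from the same cluster (chr18:63476761-63661963), went from 24.5, 20.6 and 20.8 to 84.5, 84.0 and 76.7 normalized CPM, a log2 fold change of 1.90 (SE 0.06, adjusted p = 9.22e-19). *SERPINB5*, maspin, at the edge of the cluster, moved slightly the other way, from 80.3, 74.6 and 75.1 to 64.8, 66.9 and 65.3 normalized CPM (−0.22, SE 0.04, adjusted p = 7.79e-05). In KYSE30 *SERPINB13* had at most 4 counts in any library, and *SERPINB5*, the only serpin tested there, stood at 85.5, 79.0 and 89.6 and then 88.3, 89.3 and 93.8 normalized CPM with overlap (0.09, SE 0.06, adjusted p = 0.153).

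**Figure D3:**
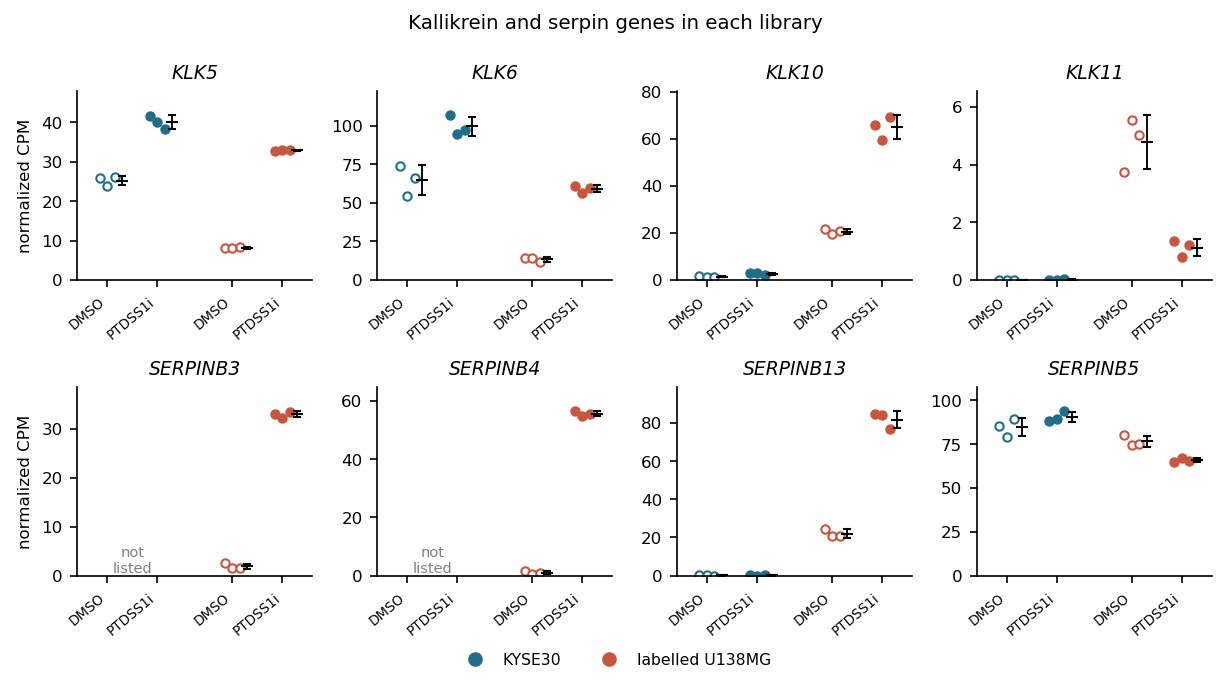
Normalized CPM of 4 kallikreins and 4 serpins is plotted in each library, with open points for DMSO, filled points for PTDSS1i and a bar for the mean ± SD of 3 libraries; *SERPINB3* and *SERPINB4* were not analysed in KYSE30 and are marked as not listed. In the libraries labelled U138MG the PTDSS1i points lie above the DMSO points for 6 of the 8 genes and below them for *KLK11* and *SERPINB5*.

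Among the other protease inhibitors, the cystatin *CSTB*, which inhibits cathepsins inside the cell, was higher in both lines. It went from 141, 118 and 122 to 228, 232 and 229 normalized CPM in KYSE30 (0.85, SE 0.06, adjusted p = 6.38e-11) and from 111, 105 and 104 to 232, 243 and 247 in the libraries labelled U138MG (1.17, SE 0.04, adjusted p = 5.62e-21). *CSTA*, its relative in the envelope, had at most 6 counts in any KYSE30 library and rose slightly in the other line, from 197, 207 and 202 to 230.3, 234 and 248 normalized CPM (0.23, SE 0.04, adjusted p = 1.81e-06). *SPINK5*, whose product restrains kallikreins, had a log2 fold change of −1.24 (SE 0.20, adjusted p = 4.24e-06) there. *A2ML1*, a broad inhibitor related to macroglobulins that reached the filter through the DMSO libraries alone, had −2.49 (SE 0.63, adjusted p = 0.000993) at under 1 normalized CPM, or −3.62 without PTDSS1i replicate 1. In KYSE30 neither passed the test, with log2 fold changes of 0.19 and 0.45.

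Of the desmosome genes, *DSC2*, *DSP*, *PKP3* and *JUP* were called in opposite directions in the lines, *DSG2* and *DSG3* were higher in both and *DSC3* was lower in both. Opposite directions were common, at 30.5% of all genes called in both lines. In KYSE30 6 of 7 desmosome genes tested were higher and 1 lower (median log2 fold change 0.41), and in the libraries labelled U138MG 2 of 8 were higher and 6 lower (median −0.52). The normalized CPM summed over the 8 genes was 1201 to 1323 in the KYSE30 DMSO libraries and 1800 to 1856 after PTDSS1i, and in the other line 1904 to 1952 and then 1271 to 1322. Lineage markers also moved, not all one way within a list. In CPM, 5 basal squamous markers (*KRT5*, *KRT14*, *KRT15*, *KRT6A* and *TP63*), of which 3 were over 1 CPM in DMSO in each line, summed to 6152 to 6961 in the DMSO libraries labelled U138MG and to 1102 to 1226 after PTDSS1i, and in KYSE30 to 138.9 to 150.7 and then 150.1 to 155. The sum of 4 epithelial markers (*CDH1*, *EPCAM*, *CLDN4* and *ESRP1*) was 1715 to 1755 and then 2439 to 2564 CPM in KYSE30, and 1060 to 1089 and then 1125 to 1133 CPM in the other line. Within these sums *KRT15* and *KRT5* had log2 fold changes of −3.26 and −1.34 in the libraries labelled U138MG, where *TP63* had −0.36, *KRT6A* 1.45, *CDH1* −0.64, *CLDN4* 0.90 and *EPCAM* 0.64. In KYSE30 *KRT15* had 0.96, *TP63* −0.42 and *CLDN4* 0.94, and the mesenchymal marker *VIM* went from 3.99 ± 0.928 to 24.6 ± 2.61 CPM, while 5 mesenchymal markers summed to 95.1 to 144.4 and then 84.8 to 88.9 CPM. The part of these markers in the results for the panel was not tested.

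*JUP*, plakoglobin, which joins the cadherins to desmoplakin, stood in KYSE30 at 643, 638 and 588 normalized CPM in DMSO and at 1037, 1004 and 1023 after PTDSS1i, a log2 fold change of 0.71 (SE 0.05, adjusted p = 1.65e-10). In the libraries labelled U138MG it went from 506, 497 and 495 to 350.2, 341 and 332 normalized CPM, a log2 fold change of −0.55 (SE 0.03, adjusted p = 1.29e-14). The treatments were apart in each line, with the order turned round. *DSP*, desmoplakin, the anchor of the keratin filaments, went from 141, 145 and 131 to 178, 169.8 and 181 normalized CPM in KYSE30 (0.34, SE 0.05, adjusted p = 8.18e-06). In the other line it went from 602, 632 and 598 to 304, 308 and 292 (−1.02, SE 0.03, adjusted p = 1.99e-20), again without overlap. *PKP3*, a plakophilin, went from 248, 224 and 199.5 to 273, 273 and 265 normalized CPM in KYSE30 (0.27, SE 0.06, adjusted p = 0.000794) and from 71.3, 68.7 and 66.3 to 48.6, 49.1 and 49.3 in the other line (−0.49, SE 0.05, adjusted p = 3.18e-10). *PKP1*, the plakophilin of upper layers, had at most 3 counts in KYSE30 and fell in the libraries labelled U138MG from 7.89, 7.22 and 6.75 to 1.84, 2.95 and 2.32 normalized CPM (−1.62, SE 0.17, adjusted p = 3.35e-09).

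The cadherins, encoded together on chromosome 18 (chr18:30990008-31549008), did not move as a block. *DSC3*, the desmocollin of lower layers, was lower in both lines. In KYSE30 it went from 20.8, 23.4 and 21.3 to 8.30, 8.26 and 9.78 normalized CPM, a log2 fold change of −1.31 (SE 0.09, adjusted p = 7.11e-11). Among the other libraries it went from 248, 242 and 242 to 72.7, 74.6 and 69.4, a log2 fold change of −1.76 (SE 0.04, adjusted p = 4.89e-25). *DSC2*, its neighbour, was higher in KYSE30, at 42.6, 45.8 and 45.9 and then 64.4, 66.5 and 70.0 normalized CPM (0.58, SE 0.06, adjusted p = 2.03e-08), and lower in the other line, at 91.8, 87.8 and 94.7 and then 70.1, 65.5 and 66.4 (−0.44, SE 0.04, adjusted p = 7.34e-10).

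The desmogleins were higher in both lines. *DSG3* went from 18.3, 15.9 and 16.4 to 22.8, 22.7 and 25.3 normalized CPM in KYSE30 (0.49, SE 0.08, adjusted p = 1.97e-05) and from 46.9, 48.8 and 47.9 to 61.1, 62.2 and 58.5 in the libraries labelled U138MG (0.34, SE 0.05, adjusted p = 4.99e-07). *DSG2* stood at 208, 196 and 199 and then 266, 256 and 282 in KYSE30 (0.41, SE 0.05, adjusted p = 5.41e-07), and at 349.9, 368 and 354 and then 409, 419 and 401 in the other line (0.20, SE 0.03, adjusted p = 8.09e-06). The second of these *DSG2* calls was lost when libraries were scaled by their size alone (0.05, adjusted p = 0.171) or by the upper quartile (0.05, adjusted p = 0.179), and *DSG2* overlaps an antisense gene.

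**Figure D4:**
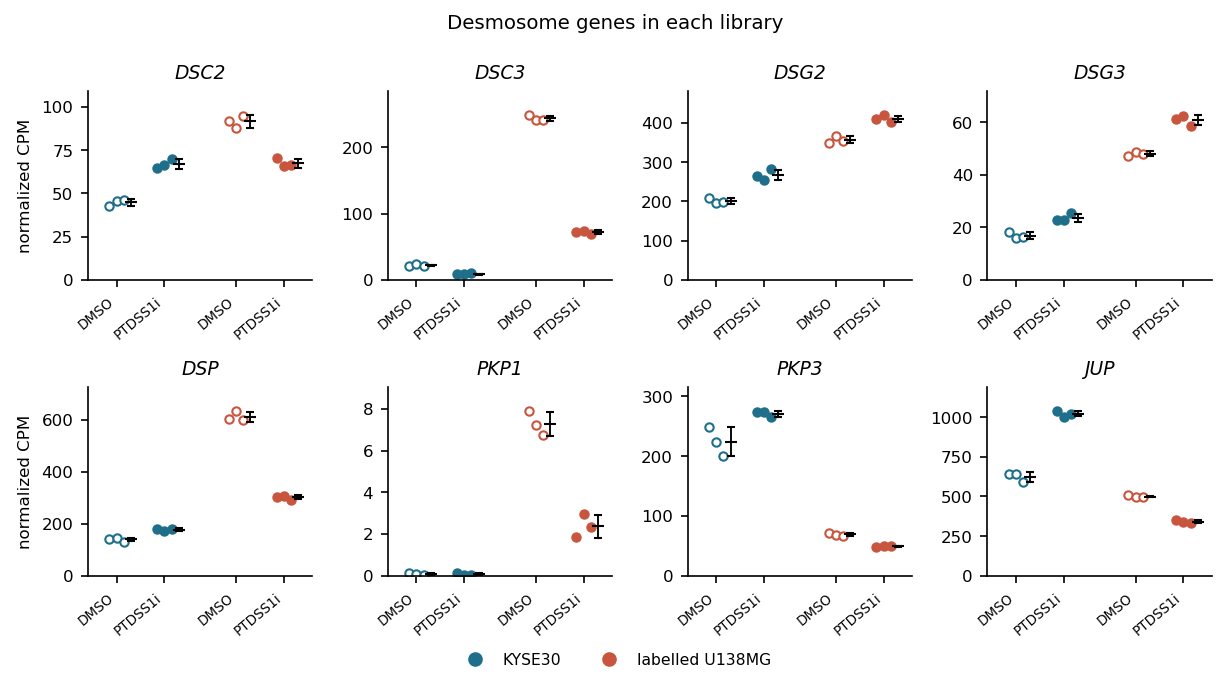
Normalized CPM of the 8 desmosome genes is plotted in each library, with open points for DMSO, filled points for PTDSS1i and a bar for the mean ± SD of 3 libraries; the 2 lines were normalized separately. *DSC2*, *DSP*, *PKP3* and *JUP* rise in KYSE30 and fall in the libraries labelled U138MG, *DSC3* falls in both, and *DSG2* and *DSG3* rise in both.

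The 11 remaining genes were mixed. In KYSE30 4 of 8 tested were higher and 3 lower, against 30.1% and 32% of all genes. In the libraries labelled U138MG 2 of 7 were higher and 3 lower, against 33.9% and 33.6%. *LY6D*, a lipid-anchored surface protein, stood in KYSE30 at 16.3, 14.8 and 16.4 and then 22.0, 21.6 and 19.4 normalized CPM (0.41, SE 0.08, adjusted p = 0.000197), and in the libraries labelled U138MG at 182, 173 and 164 and then 48.1, 44.1 and 45.3 (−1.92, SE 0.05, adjusted p = 3.62e-24). Both differences were without overlap and of opposite sign. *CLCA2*, a regulator of chloride channels, was low in KYSE30, at 0.733, 1.31 and 0.808 and then 1.54, 2.04 and 2.10 normalized CPM (1.00, SE 0.26, adjusted p = 0.00197). In the other line it went from 178, 174 and 173 to 155, 154 and 158 (−0.17, SE 0.03, adjusted p = 0.000104), a small fall with separated libraries.

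The connexin *GJB2*, a gap junction protein, was lower in KYSE30, at 19.6, 17.8 and 19.4 and then 14.2, 15.1 and 12.8 normalized CPM (−0.43, SE 0.09, adjusted p = 0.000168), and its value of −0.17 in the other line did not pass. There it was called lower with library size (−0.32, adjusted p = 0.0023) and with the upper quartile (−0.32, adjusted p = 0.0020). It was also called with 10 counts required in every library (−0.19, adjusted p = 0.0477) and without PTDSS1i replicate 2 (−0.25, adjusted p = 0.0186). *GJB6*, a second connexin, was lower in both, with log2 fold changes of −1.23 (SE 0.19, adjusted p = 7.25e-06) in KYSE30 and −0.58 (SE 0.18, adjusted p = 0.00514) in the libraries labelled U138MG, where the call was lost without DMSO replicate 2 (−0.44, adjusted p = 0.0568) or PTDSS1i replicate 3 (−0.39, adjusted p = 0.0510). *FABP5*, a fatty acid carrier, went from 5.91, 4.34 and 6.17 to 1.40, 1.99 and 1.73 normalized CPM in KYSE30, a log2 fold change of −1.69 (SE 0.18, adjusted p = 5.81e-08), and had −0.08 (SE 0.04, adjusted p = 0.0800) in the other line. There *FABP5* was called lower with library size (−0.22, adjusted p = 1.015e-05) and with the upper quartile (−0.22, adjusted p = 1.13e-05). With 10 counts required in every library it was called too (−0.10, adjusted p = 0.0224). Its reads are uncertain because 16.8% of its 75-base windows also occur elsewhere. *LYPD3*, a surface protein of upper layers, was slightly higher in KYSE30, at 126, 117 and 110.1 and then 149, 140.0 and 138.1 normalized CPM (0.27, SE 0.06, adjusted p = 0.000245). In the libraries labelled U138MG its 0.25 (SE 0.11, adjusted p = 0.0487) came from overlapping libraries, and the adjusted p was between 0.0686 and 0.330 without DMSO replicate 2 or 3 or PTDSS1i replicate 1 or 3. The *LYPD3* call there was also lost with library size (adjusted p = 0.427), the upper quartile (adjusted p = 0.419) and DESeq2 (adjusted p = 0.0925). With 10 counts required in every library it was lost too (adjusted p = 0.0626). *EMP1*, an epithelial membrane protein, had 0.13 in KYSE30, which did not pass, and went from 112, 121 and 112 to 128, 135 and 124 normalized CPM in the other line (0.16, SE 0.04, adjusted p = 0.000912), a call lost with library size alone (0.02, adjusted p = 0.741). The *EMP1* call was also lost with upper-quartile scaling (0.02, adjusted p = 0.727) and with both lines in one fit (0.16, adjusted p = 0.0624).

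*CALML5*, a calmodulin-like protein of differentiating cells, stood at 0.831, 0.202 and 0.723 and then 1.45, 1.17 and 1.16 normalized CPM in KYSE30, a log2 fold change of 1.07 (SE 0.34, adjusted p = 0.00889), or 0.69 (adjusted p = 0.0525) without DMSO replicate 2. *RHCG*, *MAL* and *CALML3*, which encode an ammonium transporter, a membrane proteolipid and a second calmodulin-like protein, were under the filter in KYSE30 with at most 11 counts in any library. In the libraries labelled U138MG *MAL* had 0 counts, and *RHCG*, *CALML3* and *CALML5* at most 12.

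Whether the effect differed between the lines was tested directly in a joint fit of the genes that both tables list. Of 45 panel genes in that fit, the log2 fold change was higher in the libraries labelled U138MG for 14 and lower for 17, against 25.5% and 24.4% of all 18405 genes tested. *SPRR1A*, among the 14, had 0 counts in the DMSO libraries labelled U138MG, and its direction was not settled. Since each line was a batch of its own, a difference between lines and one between batches cannot be told apart. Of 36 genes tested in each line separately, 25 were called in both, and 9 of these 25 (36.0%) had opposite directions, against 2090 of 6850 genes (30.5%) in the whole tables. The 9 were *IVL*, higher in the libraries labelled U138MG alone, and *TGM5*, *S100A14*, *DSC2*, *DSP*, *PKP3*, *JUP*, *LY6D* and *CLCA2*, higher in KYSE30 alone. The lower call of *TGM5* is weak, since in the libraries labelled U138MG it reached the filter through DMSO alone and lost its call without either of the libraries named above.

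The difference in log2 fold change, the libraries labelled U138MG minus KYSE30, was 3.49 (SE 0.14, adjusted p = 2.16e-19) for *IVL* and −2.36 (SE 0.09, adjusted p = 9.58e-20) for *LY6D*. Among desmosome genes it was −1.40 (SE 0.06, adjusted p = 7.50e-18) for *DSP*, −1.30 (SE 0.06, adjusted p = 1.77e-17) for *JUP*, −1.06 (SE 0.07, adjusted p = 1.76e-13) for *DSC2* and −0.80 (SE 0.08, adjusted p = 1.90e-09) for *PKP3*. Between neighbours in the cadherin cluster, *DSG3* gave −0.19 (SE 0.09, adjusted p = 0.0922), so a difference between the lines was not shown for it, while *DSG2* gave −0.25 (SE 0.06, adjusted p = 0.00104) with the same direction in each line. *TGM5*, *S100A14* and *CLCA2* gave −2.81 (SE 0.40, adjusted p = 5.93e-07), −1.29 (SE 0.07, adjusted p = 5.79e-16) and −1.22 (SE 0.20, adjusted p = 7.17e-06). The *ANXA1* effect was larger by 1.00 (SE 0.07, adjusted p = 6.64e-14) and that of *CSTB* by 0.28 (SE 0.07, adjusted p = 0.00204) in the libraries labelled U138MG. *PPL*, called in KYSE30 alone under the main settings, gave −0.59 (SE 0.06, adjusted p = 3.20e-09).

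**Figure D5:**
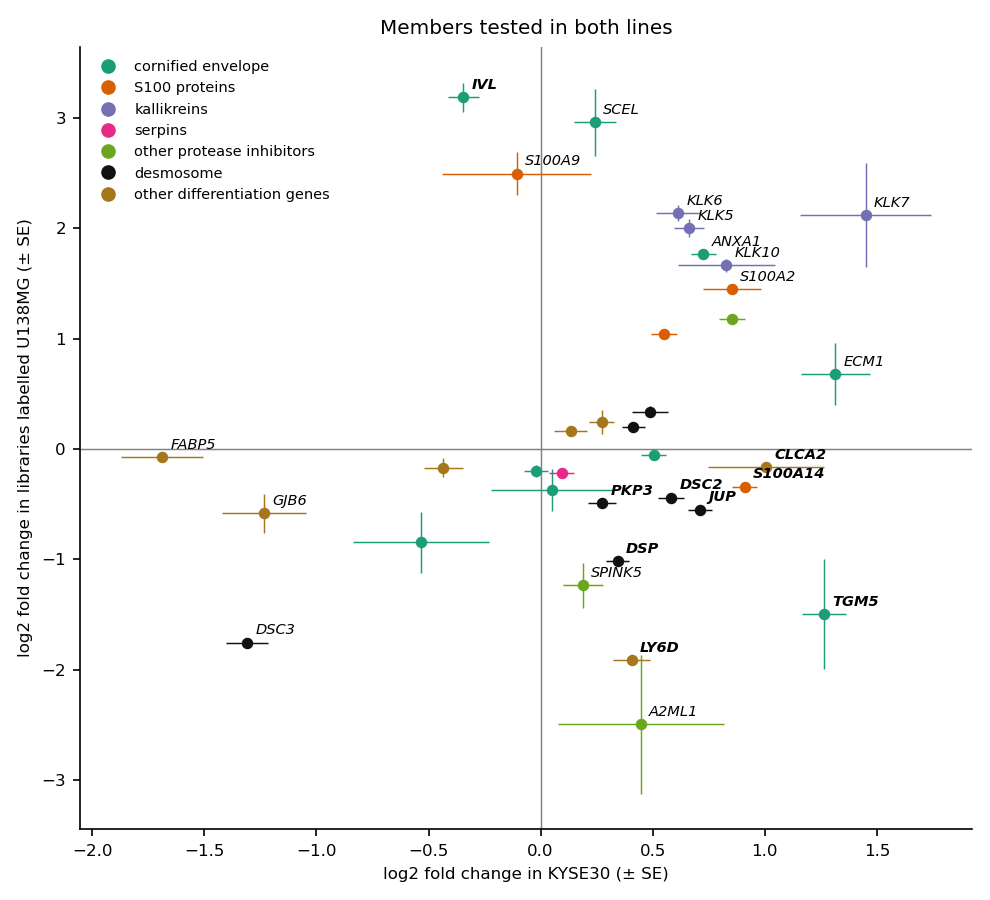
The log2 fold change in KYSE30 (x axis) is plotted against that in the libraries labelled U138MG (y axis) for 35 of the 36 genes tested in each line, with bars for the standard error and colours for the groups; *SPRR1A* is left out because its DMSO libraries labelled U138MG had 0 counts. Names in bold mark the 9 genes called in opposite directions, of which 8 lie at the lower right and *IVL* at the upper left.

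Genes outside the panel were read from 6 lists of the same biology, with earlier results of the series known. Beside the counts of each list stand the shares of all tested genes. These were 30.1% higher and 32% lower in KYSE30, and 33.9% and 33.6% in the libraries labelled U138MG. Among 20 other desmosome and cell junction genes, 11 of 17 tested were higher and 3 lower in KYSE30, and 12 of 17 were higher and 4 lower in the libraries labelled U138MG. The connexin *GJB5* was higher in both, with log2 fold changes of 1.07 (SE 0.06, adjusted p = 1.51e-12) and 1.33 (SE 0.09, adjusted p = 4.92e-14). *GJA1*, the connexin common in basal cells, was lower in KYSE30 (−1.18, SE 0.13, adjusted p = 1.93e-06) and higher in the other line (0.74, SE 0.04, adjusted p = 1.79e-16). The epithelial cadherin *CDH1* and the desmosomal membrane gene *PERP* took the same directions as *JUP* and *DSP*, at 0.56 and 0.84 in KYSE30 and −0.64 and −0.56 in the libraries labelled U138MG. Others did not: *PKP2* and *PKP4* were lower in KYSE30, at −0.49 and −0.27, where *JUP* and *DSP* were higher.

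Of 10 other S100 genes, 6 of 6 tested were higher in KYSE30 and 5 of 7 in the other line, none lower in either, among them *S100A6* (1.88, SE 0.06, adjusted p = 2.62e-16, and 1.61, SE 0.04, adjusted p = 2.35e-24). Of 22 other kallikreins, proteases and inhibitors, 9 of 12 were higher and 1 lower in KYSE30, and 11 of 15 higher and 3 lower in the other line. *CTSL*, cathepsin L, a protease that cystatins and some serpins inhibit, went from 124, 124 and 119 to 1117, 1108 and 1147 normalized CPM in the libraries labelled U138MG (3.20, SE 0.04, adjusted p = 3.21e-31) and had 0.27 (SE 0.06, adjusted p = 0.000475) in KYSE30. *SERPINB11*, over *SERPINB3* on the other strand, went from 0.449, 0.427 and 0.399 to 3.38, 2.90 and 4.39 normalized CPM.

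Other cornification genes were mostly undetected. Of 18, 2 of 3 tested were higher and none lower in KYSE30, and 1 of 5 was higher and 4 lower in the libraries labelled U138MG, where *FLG*, filaggrin, had −0.27 (SE 0.12, adjusted p = 0.0434) and *CASP14*, the caspase of cornifying cells, −1.96 (SE 0.41, adjusted p = 0.0116). Of 17 genes of the lipid envelope, 5 of 12 were higher and 1 lower in KYSE30, and 9 of 13 higher and 1 lower in the other line. *ABCA12*, the lipid transporter of keratinocytes, was higher in both (0.72 and 0.68, SE 0.07 and 0.04).

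Of 25 transcription factors of squamous cells, 8 of 21 tested were higher and 6 lower in KYSE30, and 10 of 25 higher and 15 lower in the libraries labelled U138MG. *FOSL1*, a FOS-family subunit of AP-1, stood at 1.30, 0.940 and 1.77 normalized CPM in DMSO and at 81.7, 83.7 and 77.7 after PTDSS1i in the libraries labelled U138MG, which gave a log2 fold change of 5.92 (SE 0.10, adjusted p = 1.30e-26). In KYSE30 it stood at 73.8, 42.4 and 49.1 and then 75.2, 75.3 and 75.4 normalized CPM (0.45, SE 0.23, adjusted p = 0.161). *TP63* was lower in both lines, at −0.42 (SE 0.06, adjusted p = 2.17e-06) and −0.36 (SE 0.04, adjusted p = 9.06e-10). *KLF4*, a factor of differentiating keratinocytes, was higher in both, at 1.38 (SE 0.05, adjusted p = 1.98e-15) and 0.56 (SE 0.09, adjusted p = 2.83e-06). *SOX2* had −3.03 (SE 0.09, adjusted p = 8.57e-22) in the libraries labelled U138MG and −0.07 (SE 0.05, adjusted p = 0.252) in KYSE30. No link between these factors and the panel was tested.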

How the data were processed

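Poly-A libraries were made with the TruSeq RNA kit v2, which does not mark strand. The authors deposited raw gene counts, 1 table per line, and the submitters' processing notes name Trimmomatic, STAR, featureCounts and hg38. The annotation, the strand setting and the treatment of reads with several matches are not given in the sources used here. The members and lists were chosen with earlier results of these data known.

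Each table was fitted alone with edgeR 4.0.16 (limma 3.58.1, R 4.3.3): genes kept by filterByExpr (count 10, total 15), TMM scaling, robust quasi-likelihood fits, and Benjamini-Hochberg adjustment over all genes tested, at a threshold of 0.05. The fits kept edgeR's default prior count. A prior count of 2 entered only the log2 CPM used to compare replicates. The difference between the lines came from 1 fit over both tables with an interaction term. DESeq2 1.42.0 and the settings in the closing section were alternatives. Genes at or under 3 counts in each library of a treatment were given as bounds. Members given by library had a mean of at least 5 normalized CPM and no overlap between treatments, with up to 3 per group and direction, besides those called in opposite directions; others in the text were chosen after their values were seen. The fits were first tested on simulated counts. Each replicate was counted as 1 sample. Replicates differed beyond sampling noise (chi-square per degree of freedom 2.3 to 7.49), which does not show whether they were separate cultures. Figures used Python 3.11.15, pandas 2.3.3 and matplotlib 3.10.9.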

Additional observations from a re-analysis of the deposited data

Results flagged for a closer look

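For 31 of the 45 genes of the panel in the joint fit (68.9%), the effect of PTDSS1i differed between the lines by the test of the interaction of line and treatment (edgeR's quasi-likelihood test, adjusted p under 0.05). Such differences were common: of all 18405 genes tested, 25.5% were called higher and 24.4% lower in the libraries labelled U138MG. Each value below is the log2 fold change in the libraries labelled U138MG minus that in KYSE30, and since each line was its own batch, line and batch cannot be told apart.

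For *SPRR1A* the fitted difference was 3.85. Among other cornified envelope genes the difference was 3.49 for *IVL*, 1.00 for *ANXA1*, 2.68 for *SCEL* and 3.98 for *SBSN*, all larger in the libraries labelled U138MG. It was −2.68 for *SPRR1B*, −2.81 for *TGM5*, −0.59 for *PPL* and −0.21 for *EVPL*, and that of *EVPL* had an adjusted p of 0.0538 without U138MG DMSO replicate 2. *SPRR1A* had 0 counts in 3 DMSO libraries, *SPRR1B* at most 8 counts in any library labelled U138MG and *SBSN* at most 4 in any KYSE30 library, so that these values depend on the prior count of the fit and are no bounds. The bound for *SPRR1A* in the libraries labelled U138MG, at least 14.1-fold, lay below its rise in KYSE30 (log2 fold change 4.51). Which line had the larger *SPRR1A* effect was therefore not shown.

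The S100 genes gave 2.56 for *S100A9*, 0.56 for *S100A2*, 0.45 for *S100A16* and −1.29 for *S100A14*. The kallikreins gave 1.48 for *KLK6*, 1.30 for *KLK5* and 0.80 for *KLK10*. The serpins gave 2.35 for *SERPINB13* and −0.36 for *SERPINB5*. *SERPINB13* had at most 4 counts in any KYSE30 library, and its difference was not past the threshold without KYSE30 DMSO replicate 1 (2.10, adjusted p = 0.147), DMSO replicate 2 (1.70, adjusted p = 0.272), PTDSS1i replicate 1 (2.49, adjusted p = 0.0576) or PTDSS1i replicate 2 (1.85, adjusted p = 0.0919). It was 2.97 without KYSE30 DMSO replicate 3 and 2.94 without PTDSS1i replicate 3. The other inhibitors gave 0.28 for *CSTB*, −1.46 for *SPINK5* and −2.98 for *A2ML1*, the last −4.13 without U138MG PTDSS1i replicate 1.

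All 6 desmosome genes with a difference were lower in the libraries labelled U138MG: −1.40 for *DSP*, −1.30 for *JUP*, −1.06 for *DSC2*, −0.80 for *PKP3*, −0.49 for *DSC3* and −0.25 for *DSG2*. Of the remaining genes *FABP5* gave 1.58, *LY6D* −2.36, *CLCA2* −1.22 and *CALML5* −3.94. The value of *CALML5* was −5.76 without U138MG PTDSS1i replicate 2 and rested on at most 4 counts in any library labelled U138MG.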

How the results depend on the processing

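Results were recomputed with library size or upper-quartile scaling, DESeq2, no filter, 10 counts in every library, an adjusted p under 0.01, both lines in one fit, a replicate block and each library left out. Counts of called genes, in the panel and over all genes, stayed within 1.5 times their main value under each of these except with 10 counts in every library, where 1273 genes of the libraries labelled U138MG fell by over 1 (main 2048). With that filter, which tests fewer genes, the difference between the lines was over 1 in the lower direction for 1035 genes (main 1769), and 9 panel genes were higher (main 14), 4 of them by over 1 (main 10), with 7 lower by over 1 (main 11). It also turned the median of the cornified envelope genes in the libraries labelled U138MG to −0.0745 and that of the other protease inhibitors to 0.21. Without 1 library, 25 to 27 panel genes were higher and 5 lower in KYSE30, 21 to 23 and 14 to 18 in the libraries labelled U138MG, and 13 to 16 and 16 to 18 for the difference. Single genes turned sign only where they had not passed the test, and the cause was not tested. In KYSE30 *CNFN* was −0.0505 and *SERPINB5* −0.0103 with library size, and *EVPL* was 0.0194 with both lines in one fit; without 1 library *CNFN* ran from −0.21 to 0.35, *EVPL* from −0.0660 to 0.00668 and *S100A9* from −0.29 to 0.0209. For the difference between the lines, *EMP1* was 0.000269 without a filter, and without 1 library *EMP1* ran from −0.12 to 0.0668, *CSTA* from −1.99 to 0.52 and *LYPD3* from −0.21 to 0.0299. Under the replicate block the call of *SCEL* in KYSE30 was lost (0.24, adjusted p = 0.0860) and the difference for *GJB6* gained one (0.61, adjusted p = 0.0476). The block changed no other call of a panel gene and left 25 higher and 5 lower in KYSE30 and 23 and 17 in the other line. Same-numbered samples deviated together by r of 0.0204 to 0.0754 in KYSE30 and −0.00288 to 0.0484 in the other line. For samples of different number r was −0.076 to 0.00613 in KYSE30 and −0.0638 to 0.0559 in the other line. These weak values do not settle whether same-numbered samples were paired. Genes under about 10 counts per library set the limit of what these depths could show.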
